A study of Mus musculus with 72 samples.

Results

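The Ifit genes encode interferon-induced proteins with tetratricopeptide repeats, and 5 mouse members, Ifit1, Ifit2, Ifit3, Ifit3b and Ifit1bl1, were followed here through every condition of a macrophage study. They were taken by gene name, and are 5 of the 18472 genes listed in any of the 3 deposited expression tables. The study asked how loss of function of Setd1a or Setd1b, which encode catalytic subunits of the complexes that methylate histone H3 on lysine 4, bears on macrophage gene expression. It holds 72 libraries of messenger RNA in 24 groups of 3, spread over 4 experiments. Values are TPM, an abundance of transcripts that is scaled for their length and for the total of each library.

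In the first experiment, macrophages were grown from bone marrow of C57BL/6J mice. Their labels give the genotype as Setd1bHet for the controls, whose titles read wt, and as Setd1bKO for the others. The growth protocol and the sex label of the mice differ. The cells received 0.1% ethanol or 1 uM dexamethasone (Dex), a synthetic glucocorticoid, for 16 h, and then 100 ng/ml of lipopolysaccharide (LPS), the bacterial product sensed by Tlr4, or buffer for 6 h. This gave vehicle, LPS and Dex with LPS groups. One protocol text of the series gives LPS in another unit, and the ng/ml of the labels is used throughout. The other 3 experiments used RAW264.7, a macrophage line from a male BALB/c mouse, as Wild-type cells and as cells labelled Setd1aDel/+, called Setd1aDel cells below. The labels do not say whether the deletion line is a single clone, which part of the gene it lacks, or at what age marrow was taken. The 16 h experiment with RAW264.7 cells repeated the marrow design. In the 6 h experiment ethanol or Dex was present for 6 h, the time of LPS itself, and a group with Dex alone was added. In the IFNB1 experiment, both genotypes received 100 ng/ml LPS for 6 h with or without 10 ng/ml interferon beta (IFNB1), and no ethanol.

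Macrophages answer LPS in 2 waves. Tlr4 signalling first switches on the gene for interferon beta, and the secreted interferon then acts on its receptor, Ifnar1 with Ifnar2, so that a factor complex that holds Stat2 and Irf9 binds interferon-stimulated response elements and switches on antiviral genes. Ifit genes are among the strongest targets of this second step. IFIT1 binds viral RNA that lacks methylation of the cap and blocks its translation, IFIT2 and IFIT3 form complexes with it or with each other, Ifit3b is a close copy of Ifit3, and Ifit1bl1 is an Ifit1-like gene whose role is less well known. Glucocorticoids repress many of these genes in LPS-treated macrophages.

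All 5 genes lie side by side on chromosome 19. On GRCm38 the annotation places Ifit2 at chr19:34550694-34576419, Ifit3 at chr19:34583531-34588731, Ifit1bl1 at chr19:34592891-34601956, Ifit3b at chr19:34607970-34613401 and Ifit1 at chr19:34640871-34650009, all protein-coding. Ifit1bl1 is on the minus strand and the others are on the plus strand. Promoters are shown because the family is defined by its answer to interferon. All 5 members had a RefSeq promoter window of 300 bases on GRCm38.p6, from 250 bases before to 50 after the annotated start. Below, 90 bases of each are printed 5′ to 3′ on the gene's own strand, with every match to the core of the interferon-stimulated response element (GAAA, any 2 bases and GAAA, or TTTC, any 2 bases and TTTC on the other strand) in capitals.
Ifit1 (chr19:34640765-34640854, plus strand): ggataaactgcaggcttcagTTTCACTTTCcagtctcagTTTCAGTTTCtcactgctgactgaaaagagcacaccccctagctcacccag
Ifit3 (chr19:34583353-34583442, plus strand): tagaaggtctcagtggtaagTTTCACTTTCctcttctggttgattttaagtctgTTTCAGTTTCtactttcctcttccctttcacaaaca
Ifit3b (chr19:34607749-34607838, plus strand): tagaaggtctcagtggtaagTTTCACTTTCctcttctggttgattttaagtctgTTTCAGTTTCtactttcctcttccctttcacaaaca
Ifit1bl1 (chr19:34602003-34602092, minus strand): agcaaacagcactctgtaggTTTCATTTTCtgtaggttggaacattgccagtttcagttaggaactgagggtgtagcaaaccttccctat
Ifit2 (chr19:34550570-34550659, plus strand): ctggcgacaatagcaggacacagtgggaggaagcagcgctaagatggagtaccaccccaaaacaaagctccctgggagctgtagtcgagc
Ifit1, Ifit3 and Ifit3b held the same pair of matches, TTTCACTTTC followed by TTTCAGTTTC, with starts 19 bases apart in Ifit1 and 34 apart in the other two. The printed stretches of Ifit3 and Ifit3b were identical over all 90 bases, and their whole windows were 75.9% identical against 43.1% to 50.5% for every other pair of members. Ifit1bl1 held a single match, TTTCATTTTC. No window of Ifit2 held these letters, and its one match to the GAS element (TTCNNNGAA, the same on both strands) began 241 bases before the start. Among 32851 RefSeq windows of this length, 3.44% held the response element core and 0.225% held it at least 2 times, against 8.30% for the GAS letters. The kB site (GGGA, any base and TTTCC, or GGAAA, any base and TCCC on the other strand) and the core of the glucocorticoid response element (ACANNNTGT, the same on both strands) had no match in the members' windows, against 0.411% and 6.85% of all windows. A match is a string of letters and not a shown binding site.

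Sequence also limits how well the members can be told apart by reads. Of the 31-base words of the Ifit3 transcript, 61.8% also occur in Ifit3b, and 54.1% of those of Ifit3b occur in Ifit3, so the split of TPM between this pair is uncertain. Ifit1 shared 9.62% of its words with any other Ifit transcript, Ifit1bl1 shared 19.3%, and Ifit2 shared none. Ifit2 has 2 annotated transcripts of 3818 and 700 bases, and its TPM depends on how reads were divided between them. The authors' deposited mean normalized count per TPM of Ifit2, set against that of Ifit1, was 0.337 for marrow-derived cells, 0.319 at 16 h, 0.38 at 6 h and 2.33 in the IFNB1 table. The level of Ifit2 relative to the other members therefore cannot be carried from the IFNB1 table to the others.

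The tables list 9179 genes for marrow-derived cells, 8983 for the 16 h and 6 h experiments and 18254 for the IFNB1 experiment, with listed values that sum to between 837032 and 912839 TPM per library. Read numbers are unknown. Setd1a was lower in every Setd1aDel library than in every Wild-type library of the same treatment, except under LPS in the 6 h experiment (10.5, 12.3 and 13.6 TPM against 12, 25.6 and 15.8), under Dex with LPS there (11.8, 9.6 and 14.1 against 16.5, 14.0 and 16.2) and with vehicle there (22.3, 14.6 and 14.4 against 23.7, 22.0 and 26.8). Setd1b went against its label: with vehicle the libraries labelled Setd1bKO read 10.3, 9.65 and 10.2 TPM and the controls 3.8, 5.13 and 4.7, and under LPS 6.01, 6.89 and 9.64 against 5.46, 5.36 and 8.53. The labels do not say which part of Setd1b is deleted, and the cause of these values was not tested. Macrophage markers were listed for 9 or 10 of 10 genes, and their summed TPM moved with genotype. The range was 17775 to 25926 in libraries labelled Setd1bKO against 26226 to 40127 in controls, 11676 to 24557 in Setd1aDel against 2964 to 5315 in Wild-type cells at 16 h, and 9073 to 11377 against 6492 to 7249 in the IFNB1 experiment. At 6 h the ranges overlapped, at 7228 to 12953 against 6490 to 10051. Of 6 neutrophil markers only S100a8 was listed outside the IFNB1 table. It read 24.2 to 521 TPM in libraries labelled Setd1bKO and 37.6 to 303 in controls, and 2.19 to 384 TPM in Setd1aDel and 2.22 to 22.1 in Wild-type cells at 16 h. The summed list reached at most 11.5 TPM in the IFNB1 experiment, with Elane at 0. Of 4 dendritic cell markers only Itgax was listed for marrow-derived cells, at 18.5 to 42.8 TPM with the Setd1bKO label and 23.0 to 73.1 in controls. The part of these shifts in the results below was not tested. Of 4 B cell markers, 3 were listed in the IFNB1 experiment and summed to at most 0.5 TPM, and of 4 T cell markers 3 were listed there, with Cd4 and Cd8a at 0, and summed to at most 0.1 TPM. B cell and T cell markers were not analysed here in the other tables, nor mast cell markers in any.

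Changes are given as differences of log2(TPM + 1) with their standard error, from one limma fit per experiment, and a change is called when its Benjamini-Hochberg adjusted p over all tested genes is under 0.05. This scale understates the change of genes near 0 TPM. All 5 members passed the requirement of at least 1 TPM in at least 3 libraries in every experiment. Ifit1bl1 did so in the 16 h experiment only through the 3 Wild-type LPS libraries, so in comparisons that use that group its values are given as a description and it is left out of the counts. In the IFNB1 experiment it reached 1 TPM in 7 libraries, and only the groups with IFNB1 met the requirement. It is therefore left out of the counts of the response to IFNB1 too. The labels call the 3 libraries of a group biological replicates without naming separate animals or cultures, so the tests measure the spread between these libraries. In bulk RNA, fewer responding cells and less RNA per cell cannot be told apart.

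**Figure D1:**
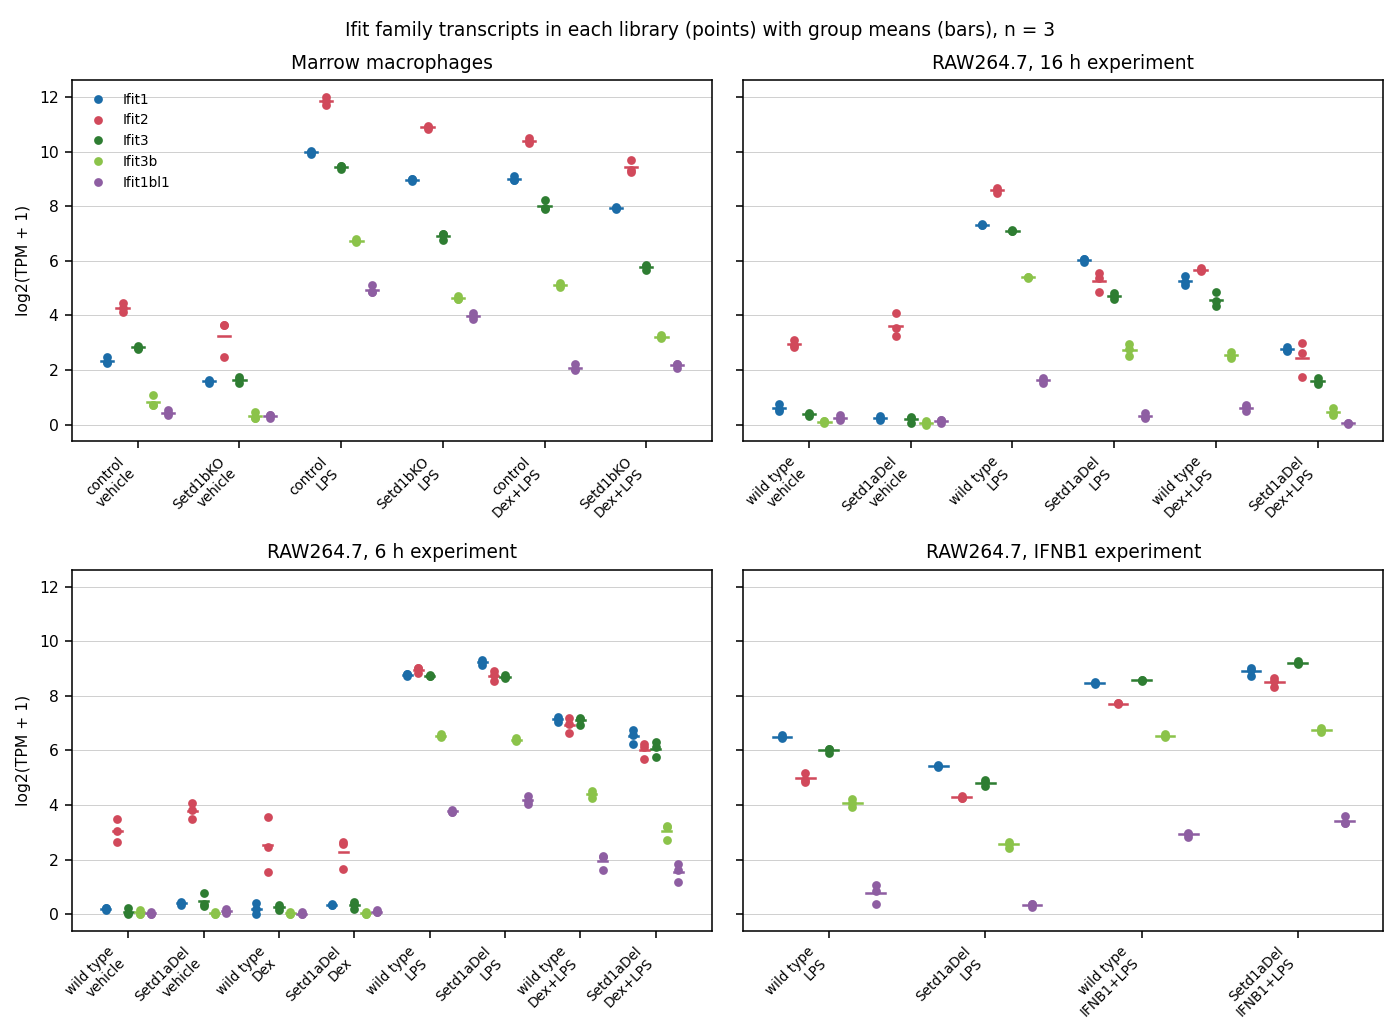
Level of each of the 5 Ifit genes in every library, as log2(TPM + 1) on the vertical axis, with one panel per experiment and the groups along the horizontal axis. Each point is 1 library, and in the 3 experiments with a vehicle group the LPS libraries stand far above the vehicle libraries, as for Ifit1 in the control marrow-derived cells at 974 to 1033 TPM against 3.75 to 4.6.

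LPS raised the family from low levels in both cell types. Ifit1 stood at 3.75, 4.6 and 3.91 TPM in the 3 control marrow-derived vehicle libraries and at 1025, 1033 and 974 TPM under LPS, a ratio of means of 247. Ifit2 went from 21.0, 18.3 and 16.5 TPM to 3672, 4136 and 3383, and Ifit3 from 5.97, 6.39 and 5.87 to 702, 703 and 655. No LPS library came near a vehicle library. Ifit3b rose from 1.1, 0.631 and 0.621 TPM to 104, 110 and 102, and Ifit1bl1 from 0.446, 0.261 and 0.346 to 28.1, 33.2 and 28.0, so the Ifit1-like gene stayed the lowest of the 5. The log2 changes ran from 4.51 ± 0.088 for Ifit1bl1 to 7.64 ± 0.059 for Ifit1. All 5 were called higher, against 20.6% of all tested genes called higher, and the median of all genes was -0.49. Most genes fell slightly on this scale, and centring on the median of ratios moved that median by 0.49 and left all 5 members called.

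The same rise was seen in Wild-type RAW264.7 cells, from lower starting points. Ifit1 read 0.395, 0.683 and 0.487 TPM with vehicle and 161, 159 and 156 under LPS in the 16 h experiment, and 0.175, 0.0976 and 0.157 against 444, 443 and 424 in the 6 h experiment. Ifit1, Ifit2, Ifit3 and Ifit3b were called higher at 16 h, against 17.4% of genes, and all 5 members at 6 h, against 19.5%. Ifit1bl1 read 0.127, 0.274 and 0.17 TPM with vehicle and 2.11, 1.9 and 2.29 under LPS at 16 h, a log2 difference of 1.38 ± 0.069. In the 6 h experiment it changed by 3.75. The summed TPM of the 5 genes averaged 721 in Wild-type LPS cells at 16 h and 1463 at 6 h, set beside 5562 in control marrow-derived cells from a separately normalized table. In mutant cells LPS also raised all 5 members, against 24.9% of genes called higher in libraries labelled Setd1bKO, 18.4% in Setd1aDel cells at 16 h and 20.4% at 6 h. The smallest of these changes, that of Ifit1bl1 in Setd1aDel cells at 16 h (0.18, adjusted p = 0.0229), was lost without LPS replicate 2 or vehicle replicate 3 of these cells.

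Libraries labelled Setd1bKO had lower Ifit levels under LPS, and the loss was deepest for Ifit3 and Ifit3b. Ifit3 read 124, 124 and 108 TPM against 702, 703 and 655 in the controls, a mean 5.78 times lower. Ifit3b read 23.3, 25.4 and 23.5 against 104, 110 and 102, or 4.38 times lower. Neither gene's groups came near each other. Ifit1 read 506, 512 and 483 TPM against 1025, 1033 and 974, Ifit2 read 1834, 1926 and 1967 against 3672, 4136 and 3383, and Ifit1bl1 read 14.6, 16.0 and 13.7 against 28.1, 33.2 and 28.0. These 3 were 1.95 to 2.02 times lower, again with no overlap. On the log2 scale the changes were -2.52 (adjusted p = 1.95e-12) for Ifit3, -2.09 (adjusted p = 7.09e-11) for Ifit3b, -1.01 (adjusted p = 1.88e-09) for Ifit1, -0.96 (adjusted p = 0.00338) for Ifit2 and -0.96 (adjusted p = 3.75e-07) for Ifit1bl1. All 5 were called lower, against 12.4% of tested genes.

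Part of this difference was present before LPS. With vehicle, Ifit1 read 2.0, 2.1 and 1.85 TPM in libraries labelled Setd1bKO against 3.75, 4.6 and 3.91, and Ifit3 read 2.34, 2.17 and 1.9 against 5.97, 6.39 and 5.87. Ifit1, Ifit2, Ifit3 and Ifit3b were called lower, by 0.50 (Ifit3b) to 1.18 (Ifit3) on the log2 scale, against 15.4% of genes. The added 1 TPM makes the Ifit3b value small. In TPM Ifit3b was 3.12 times lower (mean 0.251 against 0.783), beside 2.84 times for Ifit3, 2.06 for Ifit1 and 2.02 for Ifit2. Fitted on these 2 groups alone, 2 members were called. Ifit1bl1 was not called, at -0.12 (adjusted p = 0.367). The rise under LPS itself was smaller in these libraries for Ifit3 (difference of the log2 changes -1.35, adjusted p = 9.9e-07), Ifit3b (-1.58, adjusted p = 5.79e-07) and Ifit1bl1 (-0.85, adjusted p = 0.000158), against 5.43% of genes with a smaller rise. In TPM the rise of Ifit3 was 55.5 times against 113 in controls. It was 95.7 against 135 for Ifit3b and 60.1 against 84.9 for Ifit1bl1, so in TPM Ifit3 differed most. For Ifit1 the difference of -0.25 (adjusted p = 0.0462) was lost in 9 of 12 fits that left out a library and was -0.01 (adjusted p = 0.946) with 0.1 TPM added in place of 1. In TPM its rise was 252 times in libraries labelled Setd1bKO and 247 times in controls. For Ifit2 it was 0.07 and not called.

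The make-up of the family differed as well as its sum, which averaged 2566 TPM under LPS in libraries labelled Setd1bKO against 5562 in the controls. The log2 ratio of Ifit3 to Ifit1 averaged -2.07 in LPS libraries labelled Setd1bKO and -0.56 in the controls, with no overlap between the groups. For Ifit2 to Ifit1 the ratios averaged 1.93 and 1.88 and overlapped. The smallest p an exact permutation test of 3 libraries against 3 can give is 0.1. Of 140 such ratio comparisons over all simple contrasts and members, 101 showed no overlap, and the smallest adjusted p was 0.139. These are ratios of TPM + 1, so they depend on the added value where a member is near 0 TPM. With 0.1 TPM added instead, 75 of the ratio differences moved by more than the larger SD within a group.

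**Figure D2:**
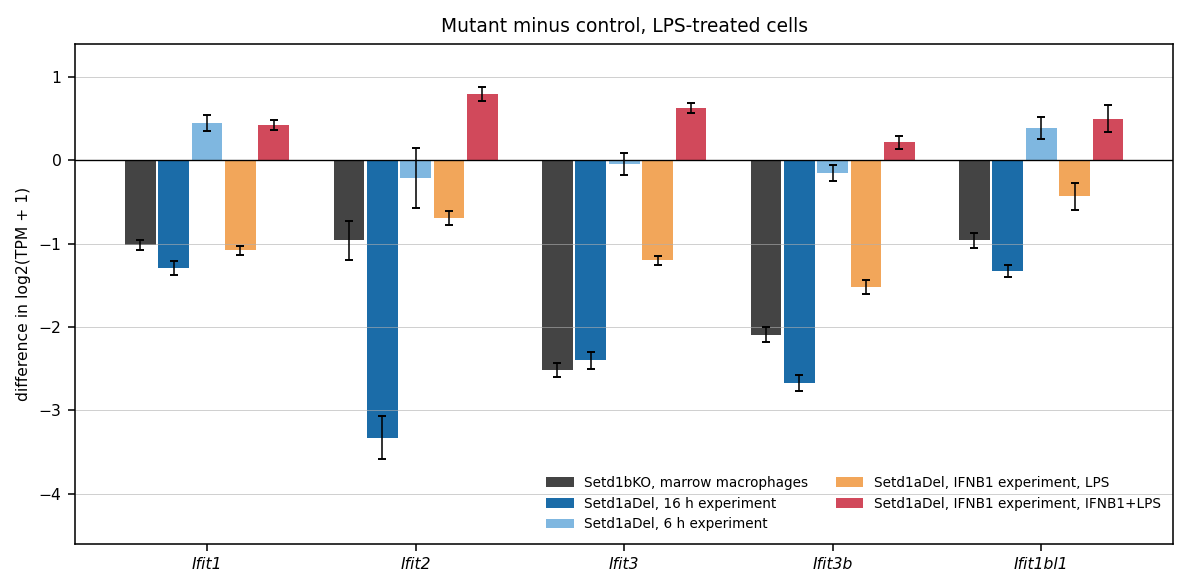
Mutant minus control difference in log2(TPM + 1) under LPS for each Ifit gene in the 4 experiments, with bars for the standard error of the limma fit. Under LPS alone, bars lie below 0 for all 5 genes in the marrow-derived, 16 h and IFNB1 experiments, and near or above 0 in the 6 h experiment. With IFNB1 and LPS, also shown, they lie above 0 for all 5 genes.

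In RAW264.7 cells after 16 h of ethanol, Setd1aDel cells also had less of every Ifit transcript under LPS, and here Ifit2 was the most affected. Ifit2 read 39.9, 45.5 and 27.9 TPM against 390, 355 and 402 in Wild-type cells, a mean 10.1 times lower. Ifit3 read 25.1, 23.2 and 27.1 against 135, 138 and 137, and Ifit3b read 6.66, 4.68 and 5.83 against 40.8, 41.8 and 41.9. Every Setd1aDel library lay below every Wild-type library. Ifit1 was the least affected in TPM, at 66.6, 61.0 and 65.4 against 161, 159 and 156, or 2.47 times lower. Ifit1bl1 read 0.21, 0.323 and 0.175 TPM against 2.11, 1.9 and 2.29. The log2 changes were -3.33 for Ifit2 (adjusted p = 2.26e-08), -2.67 for Ifit3b (adjusted p = 2.19e-12), -2.40 for Ifit3 (adjusted p = 1.5e-11) and -1.29 for Ifit1 (adjusted p = 2.29e-09), and these 4 were called lower. The Ifit1bl1 difference was -1.33, in a gene that entered the test through the higher of these groups. Called lower too were 42.4% of all tested genes, which makes the count itself less telling than the sizes: the median of all genes was -0.11.

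With vehicle at 16 h every member but Ifit2 was below 1 TPM. Ifit1 read 0.249, 0.129 and 0.167 TPM in Setd1aDel cells against 0.395, 0.683 and 0.487 and was called lower (-0.36, adjusted p = 0.0019), when 32.9% of genes were. In TPM this was 2.87 times lower, set beside 2.47 times under LPS, and the added 1 TPM makes the log2 difference with vehicle smaller than that under LPS. Ifit2 was called higher, at 10.7, 8.52 and 15.9 TPM against 6.6, 6.17 and 7.59 (0.67, adjusted p = 0.0418), when 15.3% of genes were. The Ifit2 call was lost in 5 of 6 fits that left out a library and with a pseudocount of 0.1 TPM (adjusted p = 0.0533). The other 3 were not called, but with that pseudocount Ifit3 (-0.77, adjusted p = 0.00506) and Ifit1bl1 (-0.61, adjusted p = 0.0371) were called lower. In TPM these were 2.09 and 2.13 times lower with no overlap between the groups. On the log2(TPM + 1) scale the LPS response was called smaller in Setd1aDel cells for Ifit2 (-4.0), Ifit3b (-2.63), Ifit3 (-2.22) and Ifit1 (-0.93), against 20.3% of genes with a smaller response, and the value for Ifit1bl1 was -1.20. For Ifit1 the scale decides the direction: in TPM it rose 304 times in Wild-type and 354 times in Setd1aDel cells, and with a pseudocount of 0.1 TPM the difference was -0.16 (adjusted p = 0.614). The TPM rises of the other members were smaller in Setd1aDel cells, at 3.22 times against 56.3 for Ifit2, 177 against 461 for Ifit3, 115 against 537 for Ifit3b and 2.65 against 11.1 for Ifit1bl1.

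In the 6 h experiment, where ethanol was present for only the 6 h of LPS, no Ifit gene was called lower in Setd1aDel cells under LPS. Ifit3 read 414, 430 and 398 TPM in Setd1aDel cells and 436, 421 and 423 in Wild-type cells, and Ifit2 read 435, 482 and 372 against 460, 512 and 512. Both genes' groups overlapped, with changes of -0.04 (adjusted p = 0.855) and -0.21 (adjusted p = 0.734). Ifit1 was higher in Setd1aDel cells, at 599, 637 and 559 TPM against 444, 443 and 424, a ratio of 1.37 and a log2 change of 0.45 (adjusted p = 0.0033). Ifit1bl1, at 15.3, 19.1 and 16.7 against 12.5, 13.0 and 12.5, was called higher by 0.39 (adjusted p = 0.0421). Ifit3b, at 80.0, 85.6 and 82.3 against 96.9, 88.3 and 90.4, did not overlap but was not called (-0.15, adjusted p = 0.319). These 2 calls higher stand against 9.19% of genes. Both were lost with a pseudocount of 0.1 TPM, where the Ifit1 change was still 0.45, with a standard error of 0.3 (adjusted p = 0.321). The Ifit1bl1 call was also lost in 5 of 6 fits that left out a library.

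The deletion effect under LPS differed between the experiments for Ifit1, Ifit2, Ifit3 and Ifit3b in a joint fit. The differences ran from -1.74 (Ifit1) to -3.12 (Ifit2) on the log2 scale, when 27.8% of genes differed in that direction. The Ifit1bl1 value of -1.72 is a description, as at 16 h it reached 1 TPM only in the Wild-type LPS libraries. Its means were 0.236 TPM in Setd1aDel against 2.1 in Wild-type cells at 16 h, and 17.0 against 12.7 at 6 h, so the added 1 TPM makes this value small. Setd1aDel cells averaged 133 TPM over the 5 genes against 721 at 16 h, and 1542 against 1463 at 6 h. Time of ethanol and experiment cannot be told apart. In the IFNB1 experiment, with 6 h of LPS and no ethanol, all 5 were called lower in Setd1aDel cells under LPS. The sum averaged 92.7 TPM there against 200 in Wild-type cells, in a separate table, so the result of the 6 h experiment was not repeated. In vehicle cells of the 6 h experiment only Ifit3 was called between genotypes, at 0.297, 0.695 and 0.227 TPM against 0.0378, 0.172 and 0 (0.38, adjusted p = 0.0338), against 6.58% of genes called higher. That call was lost in 3 of 6 fits that left out a library. In this experiment limma called none of the 5 LPS responses different between genotypes, when 5.60% of genes differed either way. Ifit3 alone had an unadjusted p under 0.05 there (-0.43, adjusted p = 0.192), and with a pseudocount of 0.1 TPM it was called (-1.64, adjusted p = 0.0491).

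Levels of all 5 Ifit genes under LPS were lower with Dex in every genotype and experiment. In control marrow-derived cells Ifit1 fell from 1025, 1033 and 974 TPM to 550, 492 and 496, Ifit2 from 3672, 4136 and 3383 to 1448, 1348 and 1258, and Ifit3 from 702, 703 and 655 to 295, 243 and 237. Ifit1bl1 fell further than the rest, from 28.1, 33.2 and 28.0 TPM to 3.64, 3.11 and 2.98, which is 9.17 times against 1.97 for Ifit1. No Dex library reached an LPS library. The log2 changes were -0.98 for Ifit1 (adjusted p = 1.89e-09), -1.46 for Ifit2, -1.41 for Ifit3, -1.62 for Ifit3b and -2.86 for Ifit1bl1 (adjusted p = 9.57e-13), with all 5 called lower against 15.2% of genes. Of the rise that LPS brought, 50.5% was left for Ifit1 and 9.84% for Ifit1bl1.

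Ordered by level, Ifit1 in marrow-derived cells ran from control LPS (mean 1011 TPM) through control Dex with LPS (513) and Setd1bKO-labelled LPS (500) to Setd1bKO-labelled Dex with LPS (245), and then to control vehicle (4.09) and Setd1bKO-labelled vehicle (1.99). Dex-treated controls and Setd1bKO-labelled LPS cells overlapped, and all other neighbours were apart. Ifit3 had another order: Dex-treated controls averaged 259 TPM and Setd1bKO-labelled LPS cells without Dex 119, with no overlap. For Ifit2 it was reversed, with 1351 TPM in Dex-treated controls below the 1909 of Setd1bKO-labelled LPS cells.

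In libraries labelled Setd1bKO, Dex lowered Ifit1 by 1.03 and Ifit3 by 1.12 on the log2 scale, and all 5 members were called lower against 13.5% of genes. The Dex responses of 4 members were not called different from those of the controls, with differences of -0.05 (Ifit1), -0.01 (Ifit2), 0.29 (Ifit3) and 0.19 (Ifit3b). For Ifit3 the difference was called without the first control Dex with LPS library (0.39, adjusted p = 0.0323). Ifit1bl1 responded less, by 1.05 (adjusted p = 9.51e-05), against 2.69% of genes with a difference in that direction. Its Dex with LPS levels were 3.67, 3.65 and 3.22 TPM in libraries labelled Setd1bKO and 3.64, 3.11 and 2.98 in controls, which overlapped (0.09, adjusted p = 0.462). The other 4 members were called lower in the Dex with LPS libraries labelled Setd1bKO, by 0.98 (Ifit2) to 2.23 (Ifit3) on the log2 scale, against 11.5% of genes.

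**Figure D3:**
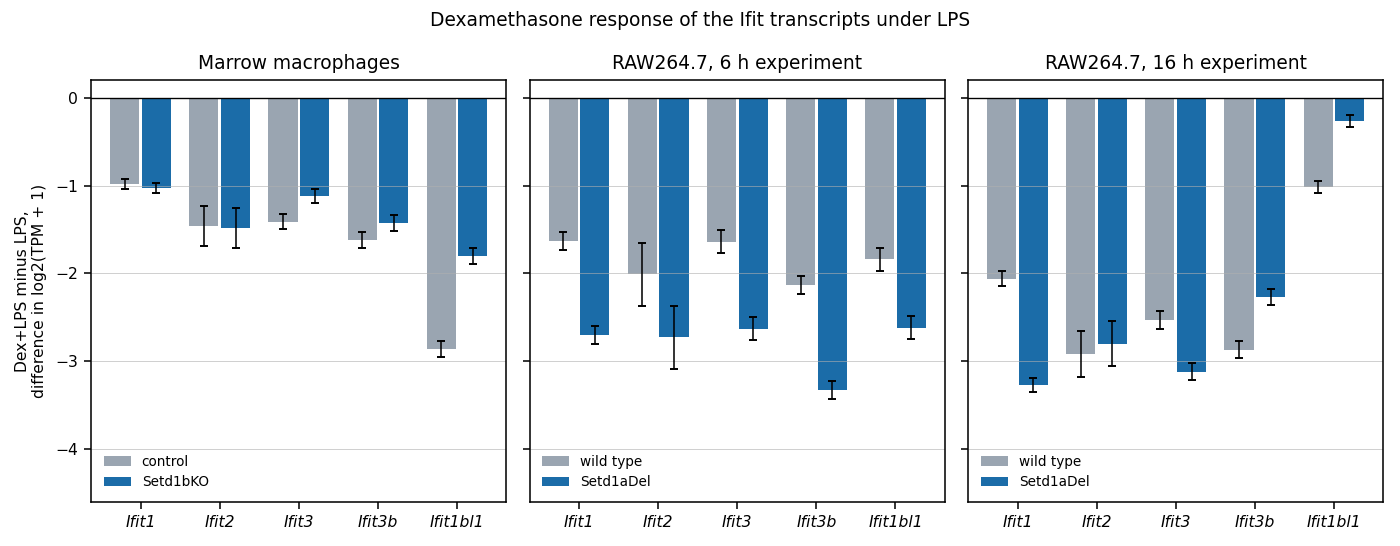
Dex with LPS minus LPS difference in log2(TPM + 1) for each Ifit gene by genotype, with bars for the standard error of the limma fit and one panel each for marrow-derived cells, the 16 h and the 6 h RAW264.7 experiment. Every estimate lies below 0, and in the 6 h panel all 5 Setd1aDel estimates lie below those of Wild-type cells.

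Dex for 16 h also lowered the family in RAW264.7 cells of both genotypes. Ifit1 in Wild-type cells fell from 161, 159 and 156 TPM to 33.3, 42.3 and 36.3, and in Setd1aDel cells from 66.6, 61.0 and 65.4 to 6.23, 5.67 and 5.4. The ratio of means was 4.25 in Wild-type and 11.2 in Setd1aDel cells. Ifit3 fell 5.91 times in Wild-type and 12.5 times in Setd1aDel cells, reaching 19.3, 27.9 and 22.1 TPM and 2.27, 1.96 and 1.79 TPM. Ifit1, Ifit2, Ifit3 and Ifit3b were called lower in Wild-type cells, against 12.3% of genes, and all 5 members in Setd1aDel cells, against 14.9%. Ifit1bl1 in Wild-type cells read 2.11, 1.9 and 2.29 TPM under LPS and 0.55, 0.622 and 0.419 with Dex. Ifit2 in Setd1aDel cells went from 39.9, 45.5 and 27.9 TPM to 2.35, 5.16 and 6.83, below the 10.7, 8.52 and 15.9 TPM of vehicle cells of the same genotype with no overlap. Its Wild-type vehicle libraries read 6.6, 6.17 and 7.59. Under Dex with LPS all 5 members were called lower in Setd1aDel than in Wild-type cells, by 0.57 (Ifit1bl1) to 3.22 (Ifit2) on the log2 scale, when 47.6% of genes were. The order of the members depends on the added 1 TPM. Mean Ifit1bl1 was 0.0319 TPM against 0.53 in Wild-type cells, and so the furthest apart in TPM ratio. Mean Ifit3b was 0.391 against 4.83, and mean Ifit2 was 4.78 against 49.7.

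The Dex response at 16 h was larger in Setd1aDel cells for Ifit1 (difference -1.21, adjusted p = 4.24e-06) and Ifit3 (-0.59, adjusted p = 0.015), when 7.68% of genes differed in that direction. Ifit2 did not differ by the test (0.11, adjusted p = 0.891). Ifit3b (0.60, adjusted p = 0.00957) was called the other way, as were 2.88% of genes, and the Ifit1bl1 difference was 0.76. Here the scale bears on the sign. Setd1aDel libraries with Dex and LPS held 0.539, 0.355 and 0.279 TPM of Ifit3b and 0.0487, 0.032 and 0.0152 TPM of Ifit1bl1, so the added 1 TPM hides most of the fall. In TPM, Ifit3b fell 8.6 times in Wild-type and 14.6 times in Setd1aDel cells, and Ifit1bl1 was 3.96 and 7.38 times lower with Dex. With a pseudocount of 0.1 TPM its difference was -0.51 (adjusted p = 0.387), and that of Ifit1bl1 was 0.48 (adjusted p = 0.382). The authors' deposited table gives log2 ratios of Dex with LPS to LPS of -3.22 in Wild-type and -3.96 in Setd1aDel cells for Ifit3b, and of -2.09 and -2.96 for Ifit1bl1.

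In the 6 h experiment, where both genotypes reached similar LPS levels, Dex lowered the family more in Setd1aDel cells. Ifit1 fell to 131, 148 and 141 TPM in Wild-type cells, 3.11 times below LPS, and to 94.4, 107 and 74.7 in Setd1aDel cells, 6.49 times below. Ifit3b fell to 18.2, 22.1 and 20.3 TPM in Wild-type and to 8.21, 8.48 and 5.65 in Setd1aDel cells, and Ifit3 to 122, 146 and 142 and to 69.2, 78.0 and 53.0. The genotypes did not overlap under Dex with LPS for these 3 genes. All 5 members were called lower with Dex in each genotype, against 10.6% and 10.7% of genes. The share of the LPS rise that was left ran from 22.0% (Ifit3b) to 32.1% (Ifit1) in Wild-type cells and from 8.99% (Ifit3b) to 16.0% (Ifit3) in Setd1aDel cells.

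The difference in Dex response was called for Ifit1 (-1.07, adjusted p = 0.000585), Ifit3 (-0.99, adjusted p = 0.00306), Ifit3b (-1.19, adjusted p = 0.000165) and Ifit1bl1 (-0.79, adjusted p = 0.0195), when 2.04% of genes differed in that direction. For Ifit2 it was -0.72 (adjusted p = 0.46). With a pseudocount of 0.1 TPM the Ifit1 difference was still -1.07, its standard error rose to 0.43 and none of the 4 was called, the nearest being Ifit3b at -1.29 (adjusted p = 0.06). Under Dex with LPS itself, Ifit1, Ifit3, Ifit3b and Ifit1bl1 were called lower in Setd1aDel cells, by 0.39 (Ifit1bl1) to 1.34 (Ifit3b), against 13.1% of genes, and 2 were called with a pseudocount of 0.1 TPM. The Ifit1bl1 groups overlapped, and its call (adjusted p = 0.0361) was lost in 4 of 6 fits that left out a library (-0.22 to -0.56) and when only these groups were fitted (adjusted p = 0.253). Dex without LPS gave no call for the 5 members in Wild-type cells by limma, and none at an unadjusted p under 0.05, when 36.8% of genes were called either way. Ifit2 was called lower there without the first Wild-type Dex library (-1.06, adjusted p = 0.0116). Of the 5, Dex alone lowered Ifit2 in Setd1aDel cells, from 16.0, 10.2 and 13.0 TPM to 5.28, 2.17 and 4.89 (-1.50, adjusted p = 0.00304), against 18.3% of genes. No member was called between the genotypes under Dex alone, at adjusted or unadjusted p, when 13.6% of genes were called either way by limma.

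Between the experiments, the Wild-type Dex response was larger after 16 h than after 6 h for Ifit1 (-0.43, adjusted p = 0.03), Ifit3 (-0.89, adjusted p = 0.000308) and Ifit3b (-0.74, adjusted p = 0.00036), when 4.36% of genes differed in that direction. Toward a smaller fall at 16 h, 9.14% of genes were called. The Ifit1bl1 difference was 0.82 (adjusted p = 0.000416), in a gene that reached 1 TPM at 16 h only in the Wild-type LPS libraries. Its mean went from 2.1 to 0.53 TPM with Dex at 16 h and from 12.7 to 2.89 at 6 h. Ifit2 was not called (-0.91, adjusted p = 0.213). Fitted on only the groups compared, Ifit2 was called (-0.91, adjusted p = 0.00418). No member was called with a pseudocount of 0.1 TPM, and the Ifit1 call was lost in 6 of 12 fits that left out a library. In Setd1aDel cells Ifit1 (-0.57, adjusted p = 0.00247) and Ifit3 (-0.49, adjusted p = 0.0385) were called toward a larger fall at 16 h, against 11.0% of genes, and Ifit3b (1.06) and Ifit1bl1 (2.36) toward a smaller one, against 8.13%. The Ifit3 call was lost in 8 of 12 fits that left out a library, and with a pseudocount of 0.1 TPM only 1 of the 4 was called and Ifit3b changed sign (-0.11, adjusted p = 0.873). The added 1 TPM hides much of the fall at 16 h. Mean Ifit3b went from 5.72 to 0.391 TPM at 16 h and from 82.6 to 7.44 at 6 h. Mean Ifit1bl1 went from 0.236 to 0.0319 and from 17.0 to 1.97. The authors' deposited log2 ratios were -3.96 at 16 h and -3.54 at 6 h for Ifit3b, and -2.96 and -3.2 for Ifit1bl1. Length of Dex and experiment cannot be told apart.

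Added IFNB1 raised the family beyond LPS alone, and it did so more in Setd1aDel cells. In Wild-type cells Ifit1 went from 93.3, 89.4 and 85.9 TPM to 342, 361 and 354, and Ifit3 from 65.4, 65.6 and 59.5 to 370, 384 and 386. In Setd1aDel cells Ifit1 went from 42.6, 40.6 and 42.3 to 427, 488 and 512, and Ifit3 from 27.5, 24.8 and 29.3 to 570, 588 and 613. The genotypes thus changed places. Ifit2 read 34.9, 29.5 and 27.4 TPM in Wild-type and 19.1, 18.1 and 18.2 in Setd1aDel cells under LPS, and 210, 211 and 207 against 323, 374 and 401 with IFNB1. Ifit3b went from 17.6, 16.0 and 14.1 TPM to 91.1, 89.3 and 95.2 in Wild-type cells, and from 5.3, 4.4 and 5.0 to 102, 106 and 113 in Setd1aDel cells. Ifit1bl1 rose from 1.1, 0.8 and 0.3 to 6.1, 6.7 and 6.9, and from 0.3, 0.2 and 0.3 to 9.1, 9.1 and 11. The sum of the 5 genes went from 200 to 1040 TPM in Wild-type and from 92.7 to 1549 TPM in Setd1aDel cells. Ifit1, Ifit2, Ifit3 and Ifit3b were called higher with IFNB1 in each genotype, against 9.50% of genes in Wild-type and 10.5% in Setd1aDel cells. Ifit1bl1 passed the filter through the IFNB1 groups, and its values are a description. Among the 10923 genes tested, the log2 change of Ifit3 in Setd1aDel cells, 4.39 ± 0.058, was the highest but one.

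**Figure D4:**
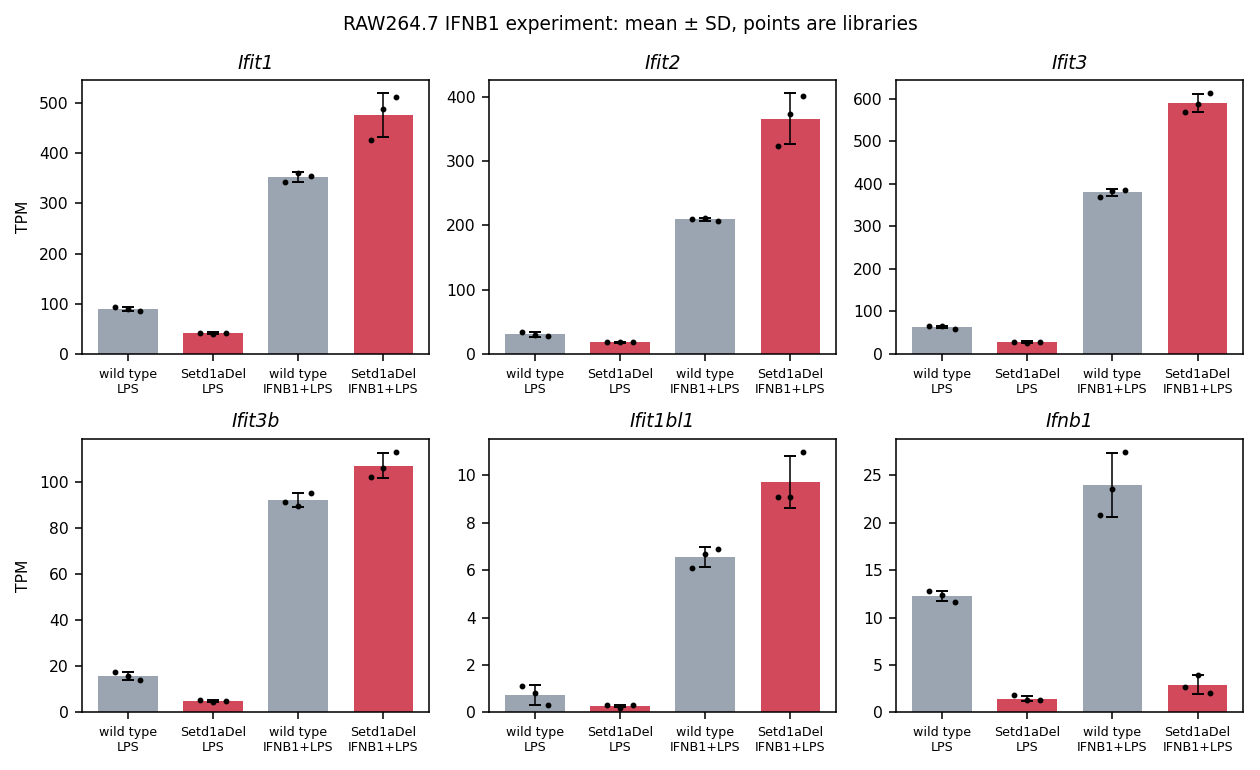
Level in TPM of the 5 Ifit genes and of Ifnb1 in the IFNB1 experiment, with one panel per gene, bars for the mean, error bars for the SD of 3 libraries and a point for each library. Under LPS alone the Setd1aDel means lie below Wild-type, and with IFNB1 they lie above for the 5 Ifit genes but not for Ifnb1.

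Without IFNB1, all 5 members were called lower in Setd1aDel cells, against 24.9% of genes: Ifit1 by 1.08 on the log2 scale (adjusted p = 7.34e-08), Ifit2 by 0.69 (adjusted p = 7.09e-05), Ifit3 by 1.20 (adjusted p = 2.74e-08), Ifit3b by 1.52 (adjusted p = 4.96e-08) and Ifit1bl1 by 0.43 (adjusted p = 0.0471). The Ifit1bl1 groups overlapped, and its call was lost in 5 of 6 fits that left out a library and with median-of-ratios scaling (adjusted p = 0.0544). With IFNB1 all 5 were called higher in Setd1aDel cells, against 15.8% of genes, by 0.43 (Ifit1), 0.80 (Ifit2), 0.63 (Ifit3), 0.22 (Ifit3b) and 0.50 (Ifit1bl1). Those of Ifit3b (adjusted p = 0.0378) and Ifit1bl1 (adjusted p = 0.0186) were lost in 4 of 6 and 2 of 6 such fits. The response to IFNB1 was called larger in Setd1aDel cells by 1.51 for Ifit1, 1.49 for Ifit2, 1.83 for Ifit3 and 1.73 for Ifit3b, when 3.31% of genes were. The difference for Ifit1bl1 was 0.93 (adjusted p = 0.027), in a gene that passed the filter through the IFNB1 groups. The Ifit1bl1 difference was no longer under 0.05 in 5 of 12 fits that left out a library, or without the filter (adjusted p = 0.055).

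The authors' deposited table gives log2 fold changes for IFNB1 with LPS over LPS of 2.07 in Wild-type and 3.69 in Setd1aDel cells for Ifit1, 2.67 and 4.62 for Ifit3, and 3.28 and 5.5 for Ifit1bl1.

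Ifnb1, which encodes the interferon that drives Ifit genes, did not follow the family throughout. Under LPS it read 12.8, 12.4 and 11.7 TPM in Wild-type and 1.8, 1.3 and 1.3 in Setd1aDel cells (-2.44 on the log2 scale, called lower), and with IFNB1 20.8, 23.6 and 27.5 against 2.7, 4.0 and 2.1. Setd1aDel cells therefore had less Ifnb1 and, once IFNB1 was supplied, more Ifit RNA. In marrow-derived cells Ifnb1 was higher in LPS libraries labelled Setd1bKO, at 14.5, 15.8 and 13.5 TPM against 9.95, 8.11 and 8.48, where every Ifit gene was lower. Dex brought it to 1.93, 1.81 and 0.862 TPM in these libraries and to 2.87, 6.92 and 7.75 in controls. It was listed at 0 in every marrow-derived vehicle library. Ifnb1 was not analysed here in the 16 h and 6 h experiments.

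The receptor and its signalling chain were read from a list of Ifnar1, Ifnar2, Jak1, Tyk2, Stat2 and Irf9, of which 5 were tested in each experiment. In LPS libraries labelled Setd1bKO, 4 of 5 were called lower and 1 higher, with a median of -0.28 against 0.10 for all genes, of which 12.4% were called lower and 29.0% higher. Stat2, which carries the signal from the receptor, fell by 0.28 on the log2 scale, and Irf9, its DNA-binding partner, rose by 0.28. In Setd1aDel cells under LPS at 16 h, 2 of 5 were called lower and 1 higher, with Stat2 at -1.74, when 42.4% of all genes were called lower and 17.5% higher. At 6 h, 1 of 5 was lower and 1 higher, against 12.3% and 9.19% of genes. Stat2 was the lower one, at 40.3, 41.4 and 38.7 TPM in Setd1aDel against 59.8, 57.2 and 59.7 in Wild-type cells under LPS (-0.54, adjusted p = 9.06e-06), in libraries where no Ifit gene was called lower. In the IFNB1 experiment Stat2 fell by 0.94 in Setd1aDel cells under LPS while Ifnar1 (0.07) and Ifnar2 (0.05) were not called. The response to IFNB1 was larger in Setd1aDel cells for 1 of 5.

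Upstream of interferon, 13 genes were tested, from Tlr4, Cd14 and the adaptors Ticam1 and Ticam2 to Irf3 and Irf7. In LPS libraries labelled Setd1bKO, 4 were called higher and 4 lower (median 0.09), with Irf3, the factor that starts Ifnb1 transcription, at 0.55 and Irf7, which amplifies it, at -0.37. The 4 higher are near the 29.0% of all genes called higher there, and 12.4% were called lower. At 16 h, 3 were higher and 7 lower in Setd1aDel cells under LPS (median -0.18), with Irf7 at -1.68, when 17.5% of genes were higher and 42.4% lower. At 6 h none was higher and 3 were lower (median -0.05), among them Irf3 at -0.37, against 9.19% and 12.3% of genes. In the IFNB1 experiment 5 were higher and 4 lower (median -0.03), with Irf7 at -1.08, against 17.7% and 24.9% of genes. Of 18 interferon ligand genes only Ifnb1 was tested, and only in the marrow-derived and IFNB1 experiments. Sensors of viral RNA and DNA gave 7 of 10 lower and 1 higher in LPS libraries labelled Setd1bKO, 9 of 10 lower in Setd1aDel cells at 16 h, 1 lower and 1 higher at 6 h, and 4 of 10 lower with 4 higher in the IFNB1 experiment, to be read against the same shares of all genes. Negative regulators such as Usp18 and Socs1 were split, at 3 lower and 2 higher of 6, 4 lower and 2 higher of 6, 2 lower and 2 higher of 6, and 3 lower and 2 higher of 7 in the same comparisons.

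Other interferon-stimulated antiviral genes, 50 by list without the Ifit genes, mostly moved in the direction of the members. LPS raised 46 of 47 tested in control marrow-derived cells (median 3.62), 43 of 44 in Wild-type cells at 16 h (median 3.07) and 44 of 44 at 6 h (median 4.43). The shares of all genes called higher there were 20.6%, 17.4% and 19.5%. Under LPS, 35 of 47 were lower and 1 higher in libraries labelled Setd1bKO (median -0.38), and 42 of 44 were lower and 1 higher in Setd1aDel cells at 16 h (median -1.44), with Cxcl10, a chemokine, and Rsad2, which encodes the antiviral enzyme viperin, both at -3.40. At 6 h, 12 of 44 were lower and 3 higher (median -0.11). Of all genes, 12.4%, 42.4% and 12.3% were called lower in these genotype comparisons, and 29.0%, 17.5% and 9.19% higher. The Ifit3 change in libraries labelled Setd1bKO, -2.52, lay further from the median of this list than that of Ifit1, -1.01.

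Many listed genes were already higher in Setd1aDel vehicle cells of the 6 h experiment. Of 44 tested, 20 were called higher in Setd1aDel cells, against 6.58% of all genes, and none lower (median 0.22 against -0.06 for all genes), among them Ifi44 at 2.00 and Ifi27l2a at 1.63. Irf7 read 13.8, 15.2 and 15 TPM against 1.92, 1.23 and 1.89. Of the 5 Ifit genes only Ifit3 was called, and Ifit1, at 0.267, 0.348 and 0.34 TPM against 0.175, 0.0976 and 0.157, was not (0.21). With Dex, 42 of 47 listed genes fell in control marrow-derived cells, 44 of 44 in Wild-type cells at 16 h and 42 of 44 at 6 h. The shares of all genes called lower there were 15.2%, 12.3% and 10.6%. The difference in Dex response at 6 h was called toward a larger fall in Setd1aDel cells for 18 of 44 (median -0.46), against 2.04% of all genes. In the IFNB1 experiment 46 of 48 rose with IFNB1 in Wild-type cells, against 9.50% of all genes. The response was called larger in Setd1aDel cells for 39 of 48 (median 0.64), against 3.31% of all genes. Among them were Isg20 (1.85), an exonuclease, and Isg15 (1.48), a ubiquitin-like modifier. With IFNB1 present, however, 20 of the 48 were higher and 17 lower in Setd1aDel cells (median -0.03), whereas all 5 Ifit genes were higher. Of the 10923 genes tested, 1725 were called higher and 4190 lower there, so the 17 lie near the share of all genes.

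IFIT proteins act on capped RNA and on translation, and the 10 genes listed for cap methylation and translation, such as Cmtr1 and Eif3a, were called in both directions. LPS gave 4 higher and 3 lower in control marrow-derived cells with a median of 0.00, against 20.6% of genes higher and 64.7% lower. Under LPS, 5 were higher and none lower in libraries labelled Setd1bKO (median 0.09), and 2 were higher and 5 lower in Setd1aDel cells at 16 h (median -0.15). The 13 listed subunits of the H3 lysine 4 methylating complexes gave 4 higher and 1 lower (median 0.19), and 1 higher and 5 lower (median -0.07), in the same comparisons. Of all genes 29.0% were higher and 12.4% lower in the first of these and 17.5% and 42.4% in the second, and the counts of the complex subunits lie near those shares. Genes that glucocorticoids induce, such as Tsc22d3, were called higher with Dex in 8 of 10 tested in control marrow-derived cells, against 44.8% of all genes, 7 of 10 in Wild-type cells at 16 h, against 35.2%, and 9 of 10 at 6 h, against 14.7%.

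The neighbours of the family on chromosome 19 did not all follow it. Ch25h, which encodes cholesterol 25-hydroxylase, an interferon-induced enzyme, lies on the Ifit2 side and rose by 4.19 on the log2 scale with LPS in control marrow-derived cells. It fell by 3.68 with Dex, and its difference between LPS libraries labelled Setd1bKO and controls was -1.33. Lipa, the lysosomal acid lipase gene that lies between Ch25h and Ifit2, fell by 1.69 with LPS and was higher by 0.41 in LPS libraries labelled Setd1bKO. Ifit1bl2 lies between Ifit3b and Ifit1, and its start faces that of Ifit1, so both genes share the same pair of response element matches. In TPM it was 2.46 times lower in Setd1aDel cells under LPS at 16 h and 1.41 times higher at 6 h, beside 2.47 and 1.37 for Ifit1. Over the whole list of 9 neighbours, LPS raised 2 of 4 tested and lowered 1 in control marrow-derived cells, and raised 3 of 7 and lowered 4 in Wild-type cells at 16 h. Of all genes, 20.6% were called higher and 64.7% lower in the first of these. In the second, 1561 of 8964 were higher and 5921 lower, and the 4 lowered neighbours lie near that share.

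Ratios of Ifit2 and Ifit3 to Ifit1 differed between genotypes, and not always in one direction. In Setd1aDel cells under LPS at 16 h the log2 ratio of Ifit2 to Ifit1 averaged -0.78 against 1.26 in Wild-type cells, and that of Ifit3 to Ifit1 averaged -1.32 against -0.21. At 6 h the Ifit3 ratio averaged -0.53 against -0.03, and under LPS in the IFNB1 experiment -0.61 against -0.49, where the groups overlapped. With LPS alone the Ifit3 ratio was thus lower in mutant cells in all 4 experiments, with groups apart in 3 of 4. With IFNB1 and LPS it was higher in Setd1aDel cells, at 0.31 against 0.11 with no overlap. The Ifit2 ratio under LPS was lower in Setd1aDel cells at 6 h as well (-0.48 against 0.18), higher in the IFNB1 experiment (-1.14 against -1.52), both with no overlap, and overlapped for the Setd1bKO label.

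**Figure D5:**
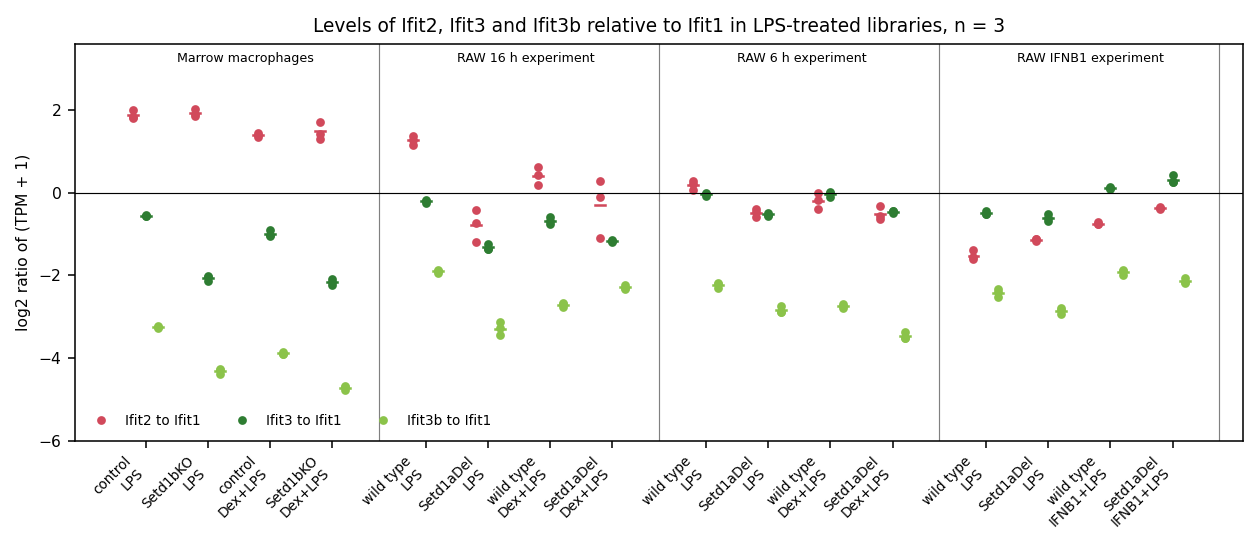
Log2 ratio of Ifit2, Ifit3 and Ifit3b to Ifit1 in each library that received LPS, with one point per library and the groups along the horizontal axis. The Ifit3 ratios in LPS libraries labelled Setd1bKO average -2.07 against -0.56 in controls, and the Ifit2 ratios of Setd1aDel cells at 16 h average -0.78 against 1.26.

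Across the 24 group means, each centred within its experiment, the members followed one another with Pearson correlations from 0.863 (Ifit1 with Ifit1bl1) to 0.984 (Ifit1 with Ifit3). Among the 8175 genes compared, those most like Ifit1 were Ifih1, Oas1g and Isg15 (0.991, 0.991 and 0.990), those most like Ifit2 were Mx1, Cxcl10 and Tap1 (0.986, 0.984 and 0.984), and those most like Ifit3 were Samd9l, Zbp1 and Isg20 (0.989, 0.983 and 0.980). Over the 16 groups that received LPS, where induction itself no longer separates the points, Phf11b was the most like both Ifit1 (0.963) and Ifit3 (0.983), and Rsad2 the most like Ifit2 (0.986). These describe group means that share libraries and treatments.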

How the data were processed

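Per the labels' protocols, messenger RNA libraries were made with a stranded kit, and 72 were grouped by experiment, genotype and treatment from the labels. The 3 tables deposited by the authors hold TPM per gene and library; per the submitters' processing notes the tools were Salmon 0.10.2, R 3.6.0 and DESeq2 on GRCm38.p6 (mm10), and no annotation release is named there. The authors also deposited mean normalized counts (a signal without its depth per library), log2 fold changes, p-values and adjusted p-values, which are quoted only where the authors' deposited table is named. TPM keeps no read number, so no counting error is given.

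Each experiment was fitted with limma 3.58.1 in R 4.3.3 on log2(TPM + 1), with 1 mean per group and a trended prior, over genes that reached 1 TPM in 3 or more libraries: 9159 (marrow-derived), 8964 (16 h), 8981 (6 h) and 10923 (IFNB1). p-values were two-sided and Benjamini-Hochberg adjusted, with calls at 0.05. The 16 h and 6 h experiments share a table and were also fitted jointly, and no test crossed tables. The fit was tested on simulated data. Within-library ratios were compared by exact permutation tests. Transcripts and coordinates come from GENCODE vM21 and promoters from RefSeq, both on GRCm38. Tables were handled with pandas 2.3.3 and numpy 2.4.6 and figures drawn with matplotlib 3.10.9.

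The 5 members and 10 gene lists were chosen with earlier results of these data known. Members are named in every comparison, signalling genes (Setd1a, Setd1b, Nr3c1, Tsc22d3, Ifnb1, Ifnar1, Ifnar2, Stat2, Irf9, Irf3 and Irf7) in any, and of each list up to 4 called genes with the largest changes. Lists are described by counts and medians, without a set test, and 1 gene that 2 of the lists held is not reported here and was left out of their counts. Ch25h, Lipa, Ifit1bl2 and genes named to say what a list holds fall under no ranking. The alternatives were a pseudocount of 0.1 TPM, no filter, median-of-ratios scaling, a replicate block, only the groups compared, Ifit3 and Ifit3b summed, and leaving out each library. A comparison of 31-base words between transcripts was added after seeing the data, in place of protein identity.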

Additional observations from a re-analysis of the deposited data

Results flagged for a closer look

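In the comparisons that follow, the test of the difference itself found that an effect on an Ifit gene differed between genotypes or experiments. Values are differences of log2 changes.

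On the log2(TPM + 1) scale the LPS response was smaller in libraries labelled Setd1bKO for Ifit1 (-0.25), Ifit3 (-1.35), Ifit3b (-1.58) and Ifit1bl1 (-0.85). In TPM the rise there was 55.5 times against 113 in controls for Ifit3, 95.7 against 135 for Ifit3b and 60.1 against 84.9 for Ifit1bl1. At 16 h the LPS response on the log2 scale was smaller in Setd1aDel cells for Ifit1 (-0.93), Ifit2 (-4.0), Ifit3 (-2.22), Ifit3b (-2.63) and Ifit1bl1 (-1.20). For Ifit1 neither difference holds in TPM, where its rise was 252 times in libraries labelled Setd1bKO against 247 in controls and 354 times in Setd1aDel against 304 in Wild-type cells, and with a pseudocount of 0.1 TPM they were -0.01 (adjusted p = 0.946) and -0.16 (adjusted p = 0.614). Ifit1bl1 at 16 h entered the test only through the Wild-type LPS libraries, which this comparison and the Dex comparison at 16 h use.

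The Dex response under LPS differed by the Setd1bKO label for Ifit1bl1 (1.05). At 16 h it differed by the deletion for Ifit1 (-1.21), Ifit3 (-0.59), Ifit3b (0.60) and Ifit1bl1 (0.76), and at 6 h for Ifit1 (-1.07), Ifit3 (-0.99), Ifit3b (-1.19) and Ifit1bl1 (-0.79). With a pseudocount of 0.1 TPM, Ifit3b (-0.51) and Ifit1bl1 (0.48) were not called at 16 h, and no member at 6 h. The authors' deposited log2 ratios at 16 h show a larger fall in Setd1aDel than in Wild-type cells, at -3.96 against -3.22 for Ifit3b and -2.96 against -2.09 for Ifit1bl1.

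The IFNB1 response was larger in Setd1aDel cells for Ifit1 (1.51), Ifit2 (1.49), Ifit3 (1.83), Ifit3b (1.73) and Ifit1bl1 (0.93). Ifit1bl1 passed the filter there through the groups with IFNB1.

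Between the 16 h and 6 h experiments the Wild-type Dex response differed for Ifit1 (-0.43), Ifit3 (-0.89), Ifit3b (-0.74) and Ifit1bl1 (0.82), and that of Setd1aDel cells for Ifit1 (-0.57), Ifit3 (-0.49), Ifit3b (1.06) and Ifit1bl1 (2.36). The positive values of Ifit3b and Ifit1bl1 are on the log2(TPM + 1) scale, which hides much of the fall at 16 h. The authors' deposited log2 ratios in Setd1aDel cells were -3.96 at 16 h and -3.54 at 6 h for Ifit3b, and -2.96 and -3.2 for Ifit1bl1. The deletion effect under LPS differed for Ifit1 (-1.74), Ifit2 (-3.12), Ifit3 (-2.36), Ifit3b (-2.52) and Ifit1bl1 (-1.72). At 16 h Ifit1bl1 reached 1 TPM only in the Wild-type LPS libraries.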

How the results depend on the processing

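Of 190 member changes over 38 comparisons, 149 were called, and 34 gained or lost a call or changed sign under some alternative. These totals include Ifit1bl1 also where it is left out of the counts above. The number of called members stayed within 1.5 times in all 38 comparisons without the filter, with median-of-ratios scaling, with the replicate block and with Ifit3 and Ifit3b summed. With a pseudocount of 0.1 TPM, the Ifit3b difference in Dex response by genotype at 16 h became -0.51 (adjusted p = 0.387), and its difference between 16 h and 6 h in Setd1aDel cells became -0.11 (adjusted p = 0.873), both changed in sign. With that pseudocount the count of called members went from 4, Ifit1bl1 among them, to 2 for the Dex response by genotype at 16 h. At 6 h it went from 4 to 0. For Setd1aDel against Wild-type cells it went from 2 to 0 under LPS at 6 h, from 4 to 2 under Dex with LPS at 6 h, and from 5 to 3 with IFNB1. It went from 0 to 1 for the LPS response by genotype at 6 h, and for the Dex response between 16 h and 6 h from 4 to 0 in Wild-type and from 4 to 1 in Setd1aDel cells. Fitted on only the groups compared, the vehicle counts went from 4 to 2 (Setd1bKO label), 2 to 1 (Setd1aDel at 16 h) and 1 to 0 (Setd1aDel at 6 h). The cause was not tested.

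Leaving out each library in turn, counts ranged from 1 to 2 for the Dex response by genotype in marrow-derived cells and for Setd1aDel vehicle cells at 16 h, from 0 to 1 for Setd1aDel vehicle cells at 6 h, from 1 to 2 for Setd1aDel cells under LPS at 6 h, from 0 to 1 for Dex alone in Wild-type cells, and from 3 to 5 for Setd1aDel cells with IFNB1. The cause was not tested. Without a Wild-type LPS library Ifit1bl1 had too few libraries at 1 TPM to be tested at 16 h. No clear pairing by replicate number was seen, but it is not excluded. Deviations of same-numbered libraries correlated at -0.16 to 0.18 for marrow-derived cells, with over 0.1 in 4 of 45 pairs, and 10 of 18 of those libraries correlated best with their own number. At 16 h the range was -0.32 to 0.28, and 1 of 18 did so. With the replicate block the count for the Setd1bKO label under LPS was 5, as without it, while Ifit2 under Dex with LPS in Setd1aDel cells at 6 h gained a call (-0.93, adjusted p = 0.0482) and those of Ifit1bl1 (adjusted p = 0.0752, LPS) and Ifit3b (adjusted p = 0.0507, IFNB1) in the IFNB1 experiment were lost.

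Scaling by median of ratios moved the median of all genes by 0.49 for LPS in control marrow-derived cells and 0.36 in those labelled Setd1bKO, 0.39 and 0.42 for LPS at 16 h, and 0.24 and 0.21 at 6 h. The share of higher among called genes moved from 24.2% to 50% in the first of these, where the number called higher went from 1887 to 3561. With Dex in control marrow-derived cells the number called lower went from 1389 to 2455. The shares of all genes given above are those without this scaling. Read numbers are unknown, so the precision of values near 0 TPM, such as Ifit1bl1 in RAW264.7 cells, cannot be given.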
